A study of Mus musculus with 8 samples.

Results

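The gene set described here held the lysosome's digestive enzymes, its membrane proteins and the pump that acidifies it: 37 of the 24341 genes listed per library, chosen by name. They were 4 membrane proteins, 9 cathepsins, 7 glycosidases and related proteins, 3 genes of cholesterol and ion transport, and 14 genes of the vacuolar proton pump (V-ATPase), of which 5 encode V0 subunits, 7 V1 subunits and 2 accessory subunits. All 37 were found once in each table and had an OK status in all 8 libraries. Each library came from the tibialis anterior, a fast hind-limb muscle, of 1 mouse aged 12 weeks, described as male and fed chow. Both groups carried floxed Carm1, the gene of an arginine methyltransferase also called PRMT4. The 4 knockout mice (Carm1 skm-/-) also carried the HSAcre transgene (Tg/0), a Cre recombinase driven by the human skeletal actin promoter of muscle fibres, and the 4 controls (Carm1 skm+/+) lacked it (0/0). Cre and the loss of Carm1 were therefore present together in every knockout library, and cells other than fibres could still express Carm1.

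Lysosomes break down proteins, glycans and lipids delivered by endocytosis and autophagy, and in skeletal muscle they also degrade glycogen. Their hydrolases work at acid pH, which the V-ATPase maintains: its V1 sector hydrolyses ATP in the cytosol and its V0 sector moves protons through the membrane. Many lysosomal genes are controlled by TFEB and its relatives, which bind a CACGTG-centred promoter element known as CLEAR. In cultured cells CARM1 has been described as a coactivator of TFEB during starvation. The comparison asked how the transcripts of this system stood in muscle with and without Carm1.

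Values are FPKM, fragments per length of transcript and per total of mapped fragments, divided by a scaling factor per library, and are called scaled FPKM. Read counts are not known from the tables. The steps between low values put every library at 81.0% or more of the depth of the deepest one. The targeted gene, Carm1, had 30.5 ± 4.82 scaled FPKM in the control muscles and 15.4 ± 2.57 in the knockout muscles (SD, n = 4 each). Its groups did not overlap, and the 2-sided exact permutation test gave p = 0.0286, which is the minimum for 70 arrangements. Control 1, knockout 2 and knockout 4 held between 19.6 and 22.9 FPKM of Xist, a transcript of female cells, against at most 0.0662 in the other 5, and at most 0.112 FPKM of the Y-linked Eif2s3y, against at least 42.3. These 3 libraries stand apart from the labels and also held between 764 and 1540 FPKM of the fast oxidative myosin Myh2, against at most 167 in the other 5. The fibre genes Mb and Tnni2 were abundant in all 8 libraries, at 8006 scaled FPKM or more, while Acta1, Ckm and Tnnt3 were each listed at 0 in at least 4 libraries, with a status other than OK.

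Promoter sequences were matched for 31 of the 37 members in RefSeq (GRCm38.p6, the assembly of mm10), and Ctsb, Ctsh, Npc1, Atp6v1b2, Atp6v1c1 and Atp6v1h had no entry. CACGTG, which reads the same on both strands, was present within 250 bases before the start of 11 of the 31, or 35.5%. It was present in 6.86% of the 27025 genes with an entry and in 10.2% of the 8468 of them that were tested for expression. The longer TCACGTG, which contains it, was found on either strand in 9 members, or 29.0%, against 3.58% of all genes. Its share among the genes tested for expression was not determined. A 10-base motif with CACGTG at its centre, which also reads the same on both strands, was found in 0 of the 31 members. It was rare in general, at 0.27% of all genes. The 11 members with CACGTG were Lamp1, Ctsa, Ctsd, Ctsf, Ctsl, Gla, Glb1, Gaa, Mcoln1, Atp6v0b and Atp6v1a. Their 18 copies lay between 12 and 245 bases before the start, 12 of them within 100 bases. A set of 6 promoters is shown, 5′ to 3′ on the gene's strand, with CACGTG in capitals: Lamp1 with 4 copies (chr8:13158911-13159160, plus strand), Ctsd (chr7:142387828-142388077, minus), Mcoln1 (chr8:3500269-3500518, plus) and Atp6v0b (chr4:117887330-117887579, minus) with 2 each, Glb1 with 1 (chr9:114400828-114401077, plus), and Atp6v0e with 0 (chr17:26676146-26676395, plus). They were picked with their differences in expression known, and do not stand for all members. Not shown were Ctsl, Gaa and Gla, with CACGTG and differences below 0, and Hexa, without CACGTG and with a difference above 0.
Lamp1: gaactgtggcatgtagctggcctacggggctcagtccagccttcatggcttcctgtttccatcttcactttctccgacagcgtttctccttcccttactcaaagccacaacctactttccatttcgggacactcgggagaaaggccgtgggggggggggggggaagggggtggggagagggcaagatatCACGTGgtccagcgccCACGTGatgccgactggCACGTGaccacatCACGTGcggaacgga
Ctsd: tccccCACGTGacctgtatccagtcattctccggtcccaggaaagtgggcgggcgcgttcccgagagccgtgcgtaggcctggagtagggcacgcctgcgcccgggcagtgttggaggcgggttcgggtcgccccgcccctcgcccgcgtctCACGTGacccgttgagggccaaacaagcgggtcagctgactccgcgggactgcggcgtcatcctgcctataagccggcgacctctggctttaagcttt
Mcoln1: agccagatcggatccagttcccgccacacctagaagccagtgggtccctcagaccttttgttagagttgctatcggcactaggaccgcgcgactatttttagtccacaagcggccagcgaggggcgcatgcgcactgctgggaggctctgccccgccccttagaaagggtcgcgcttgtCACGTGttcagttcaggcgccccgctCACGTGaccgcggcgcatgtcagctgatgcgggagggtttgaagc
Atp6v0b: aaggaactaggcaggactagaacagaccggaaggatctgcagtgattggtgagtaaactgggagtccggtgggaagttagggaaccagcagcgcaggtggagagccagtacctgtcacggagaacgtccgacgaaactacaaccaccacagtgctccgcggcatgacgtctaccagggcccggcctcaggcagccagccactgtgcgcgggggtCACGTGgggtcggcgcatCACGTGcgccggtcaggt
Glb1: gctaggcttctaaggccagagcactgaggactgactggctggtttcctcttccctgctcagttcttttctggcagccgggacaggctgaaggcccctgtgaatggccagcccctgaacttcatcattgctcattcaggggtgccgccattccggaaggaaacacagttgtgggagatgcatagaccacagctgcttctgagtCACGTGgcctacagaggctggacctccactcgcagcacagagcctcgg
Atp6v0e: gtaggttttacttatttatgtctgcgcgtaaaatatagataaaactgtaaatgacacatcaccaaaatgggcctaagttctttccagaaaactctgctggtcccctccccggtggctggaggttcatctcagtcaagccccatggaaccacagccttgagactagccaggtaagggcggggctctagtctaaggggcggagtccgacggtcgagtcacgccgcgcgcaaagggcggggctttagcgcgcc
These matches are letters in a window and not measured binding.

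The members spanned a wide range of levels, from Ctsd at a mean of 505 scaled FPKM over the 8 libraries to Gla at 1.49. Ctsd, the aspartic protease cathepsin D, Psap, the precursor of the saposins that present lipids to hydrolases, and Lamp1, the main glycoprotein of the lysosomal membrane, led the order at 505, 335 and 241. Their ranges over the 8 libraries did not overlap one another. From Cd63, which came next at 165, to Ctsk at 5.31 every gene's range overlapped that of the next gene in the order, and below Ctsk came Ctss at 2.67, Glb1 at 1.69 and Gla. All 37 members passed the filter for testing, which asked for 1 scaled FPKM in at least 4 libraries. On scaled FPKM their sum was 2388 ± 114 in controls and 2493 ± 75.0 in knockouts (SD, n = 4 each), with overlapping groups. As a share of all deposited FPKM it was 0.356% ± 0.0169 and 0.399% ± 0.0187 without overlap, but fibre genes listed at 0 in some libraries are missing from that total.

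**Figure D1:**
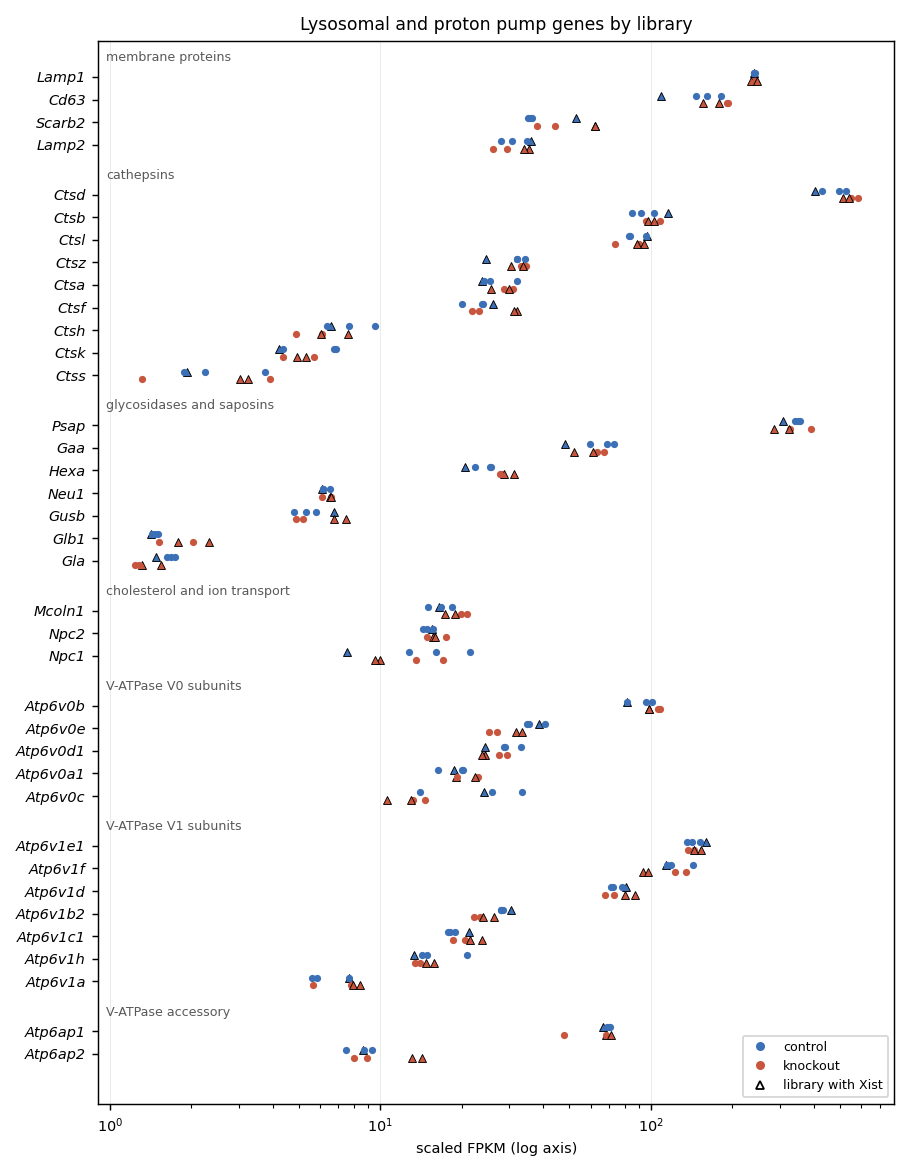
Scaled FPKM of the 37 lysosomal and proton pump genes on a log axis, by role, with 1 point per library (blue control, red knockout, black-edged triangles for the 3 libraries with Xist). Ctsd lies highest, at 403 to 584, and Gla lowest, at 1.24 to 1.74, while the 8 points of Lamp1 nearly coincide.

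No member passed the test between knockout and control. In limma across 11096 genes, 40 genes (0.36%) had a Benjamini-Hochberg adjusted p under 0.05, 22 higher (0.198%) and 18 lower (0.162%), and none was a member. Without scaling 36 were higher (0.324% of genes) and 13 lower (0.117%), again with no member. The smallest adjusted p among members was 0.182, for Atp6v0c. At an unadjusted p under 0.05 there were 6 members, or 16.2%, against 13.1% of all genes, 3 of them higher (Hexa, Glb1 and Ctsd) and 3 lower (Atp6v0c, Atp6v0e and Atp6v1b2). Groups did not overlap for 4 members, or 10.8%, against 8.31% of all genes. They were Hexa and Glb1, higher, against 4.67% of all genes, and Atp6v0e and Atp6v1b2, lower, against 3.64%. On FPKM as deposited it was 5 members against 9.94% of all genes, all 5 higher (Cd63, Ctsd, Hexa, Mcoln1 and Atp6v0b, against 8.23%) and 0 lower (against 1.71%). The shares at an unadjusted p in this fit and without overlap on scaled FPKM lie near those of all genes. Of the 37 members 21 had a difference above 0 and 16 below, with a median log2 difference of 0.04 against -0.0021 for all genes. For 28 of the 37 members the whole 95% interval of the difference lay between -0.5 and 0.5 on the log2 scale. The same held for 7841 of the 11094 tested genes whose name is listed once. In bulk muscle, fewer cells of a type and less RNA per cell cannot be told apart.

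**Figure D2:**
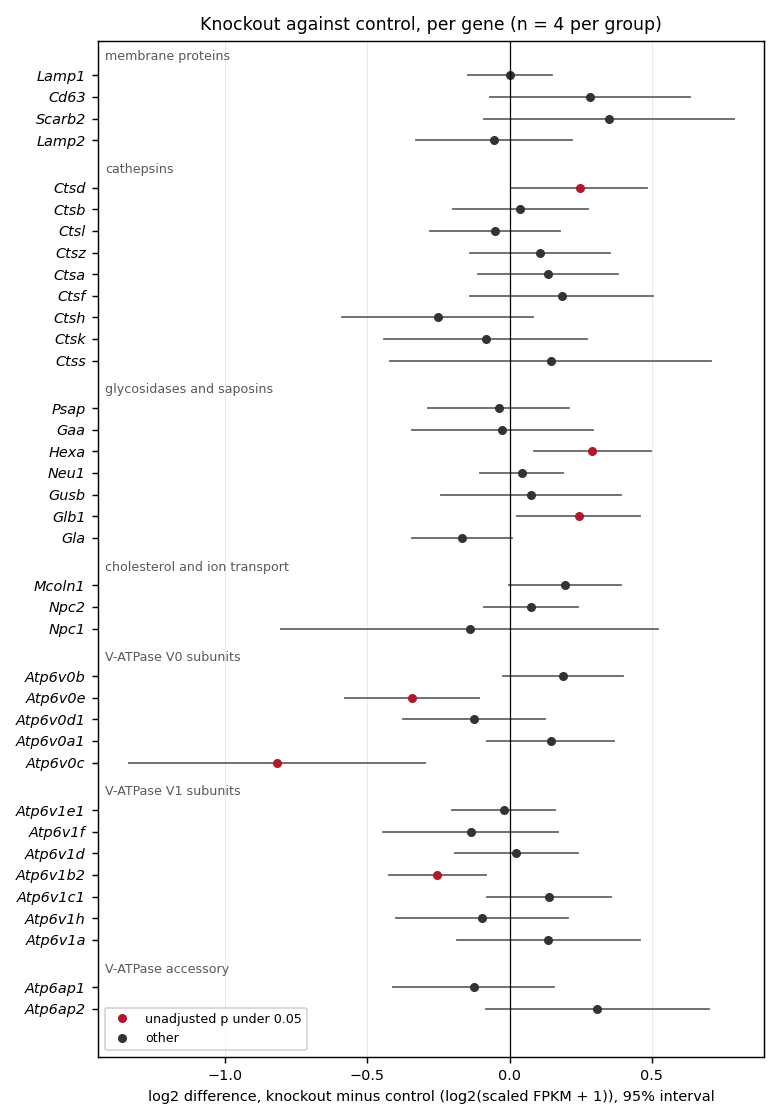
Log2 difference, knockout minus control, of log2(scaled FPKM + 1) for each of the 37 genes, with 95% intervals from limma (n = 4 per group) and red points for the 6 with an unadjusted p under 0.05. Most intervals cross 0, and Atp6v0c lies farthest from it, at -0.82.

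Because 3 libraries carried Xist, the same fit was run with presence of Xist as a covariate, in the other 5 libraries alone, and without knockouts 2 and 4. With the covariate 223 genes (2.01%) passed, 121 higher (1.09%) and 102 lower (0.919%), and 0 members did. At an unadjusted p under 0.05 there were then 10 of the 37 members, a larger share than the 18.6% of all genes. The smallest adjusted p of a member was 0.0577, for Atp6v0e. In the 5 libraries without Xist 3 genes (0.027%) passed, and without knockouts 2 and 4 it was 13 (0.117%), 6 higher (0.0541%) and 7 lower (0.0631%), none of them a member in either fit. There, 4 and 3 of the 37 members had an unadjusted p under 0.05, smaller shares than the 12.4% and 12.9% of all genes. Leaving out any 1 library gave between 2 and 27 genes and 0 members.

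Among the membrane proteins Lamp1 was nearly constant on scaled FPKM. It stood at 239.6, 240.4, 240.0 and 241 scaled FPKM in controls 1 to 4 and at 241, 235, 242 and 246 in knockouts 1 to 4. Its log2 difference was 0.0023 (95% interval -0.15 to 0.15), and the highest library was 1.05 times the lowest. As deposited, Lamp1 ranged from 217 to 262 FPKM, and without scaling its log2 difference was 0.091. Lamp2, a related glycoprotein that also takes part in chaperone-mediated autophagy, stood at 32.3 ± 3.68 and 31.2 ± 4.29 (SD, n = 4 each). Lamp1 was between 6.66 and 9.29 times as abundant as Lamp2 in single libraries. Cd63, a tetraspanin of late endosomes and lysosomes, stood at 109, 161, 182 and 146 in controls and at 191, 156, 193 and 178 in knockouts. Control 1 was the lowest library and the groups overlapped, at a log2 difference of 0.28 (SE 0.16, limma adjusted p = 0.487). Without control 1 the difference was 0.14.

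Scarb2, also called LIMP-2, carries the enzyme beta-glucocerebrosidase to the lysosome. It stood at 52.9, 35.8, 35.0 and 36.3 scaled FPKM in controls and at 44.1, 62.0, 38.1 and 62.3 in knockouts. The 3 highest libraries were control 1, knockout 2 and knockout 4, those with Xist. The log2 difference of 0.35 (SE 0.19) became 0.21 (SE 0.067) with Xist as a covariate and 0.055 (SE 0.18) without knockouts 2 and 4, with limma adjusted p-values of 0.489, 0.158 and 0.918.

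Cathepsin D dominated the cathepsins. Ctsd made up 61.8% ± 3.87 of their summed FPKM in controls and 65.3% ± 1.82 in knockouts, and Ctsd, Ctsb and Ctsl together 87.2% ± 0.914 and 87.7% ± 0.774 (SD, n = 4 each). Ctsd itself stood at 403, 526, 495 and 429 scaled FPKM in controls and at 549, 514, 584 and 541 in knockouts. Knockout 2 lay below control 2, the one overlap between the groups. The log2 difference was 0.25 (SE 0.10, limma adjusted p = 0.368). The cysteine proteases Ctsb and Ctsl stood at 98.9 ± 13.3 and 89.8 ± 7.57 in controls and at 101 ± 5.40 and 86.8 ± 8.87 in knockouts, with log2 differences of 0.04 (95% interval -0.20 to 0.27) and -0.05 (-0.28 to 0.18). Ctsl is known as a gene induced in muscle atrophy. Summed over the 9 cathepsins, scaled FPKM was 702, 788, 798 and 703 in controls and 837, 809.8, 862 and 841 in knockouts. These sums did not overlap, and Ctsd was their largest part in every library. No single cathepsin separated the groups on scaled FPKM. The membrane protein sums did not overlap either, at 437 to 487 in controls and 488 to 520 in knockouts. The sums of the other roles overlapped.

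The other cathepsins were lower in level. Ctsz, a carboxypeptidase, Ctsa, a serine carboxypeptidase that protects Neu1 and Glb1 in a complex, and Ctsf lay between 20.1 and 34.5 scaled FPKM in all 8 libraries. Ctsf had its highest values in knockouts 2 and 4, at 32.0 and 31.1, and next in control 1, at 26.0, so the libraries with Xist led. Ctsh, an aminopeptidase, stood at 6.56, 6.34, 7.63 and 9.57 in controls and at 6.07, 7.61, 4.87 and 6.02 in knockouts. Its groups overlapped, with a log2 difference of -0.25 (SE 0.15, limma adjusted p = 0.507). It was -0.14 without control 4, -0.16 without knockout 3 and -0.44 in the 5 libraries without Xist. Ctsk, known from osteoclasts and fibroblasts, stood at 5.55 ± 1.45 and 5.08 ± 0.564.

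Ctss, cathepsin S of antigen-presenting cells, varied most among the cathepsins, with 1.94, 1.88, 2.25 and 3.75 scaled FPKM in controls and 3.91, 3.04, 1.31 and 3.25 in knockouts. The summed macrophage markers, 14 genes of which 9 could be tested, stood at 46.7, 46.8, 65.5 and 79.6 in controls and at 74.4, 65.0, 41.4 and 72.8 in knockouts. Both were lowest in knockout 3 and high in control 4 and knockouts 1 and 4. Of the defining markers Adgre1 lay between 0.199 and 0.598 and Ptprc between 0.187 and 0.458 scaled FPKM. Of the 9 tested markers 8 had a difference above 0, none passed, and their part in the level of Ctss was not tested. Summed fibro-adipogenic markers, of cells that also express Ctsk, ranged from 319.6 to 606 in controls and from 248 to 426 in knockouts. Of these 9 markers 8 had a difference below 0 and none passed. An unadjusted p under 0.05 was reached by 3, all lower, against 13.1% of all genes in either direction. All 7 endothelial and all 6 smooth muscle and pericyte markers had differences below 0, with medians of -0.18 and -0.34 on the log2 scale, and none passed. Of the 5 tested fibre markers 4 lay below 0 and 1 above, with a median of -0.28. The 4 Schwann and 2 tested adipocyte markers all lay below 0. Above 0 lay the 3 tested red blood cell markers, 3 of 4 tendon markers and the 1 tested satellite cell marker. None of these passed either. Of the T-cell markers Cd3e stood at 1.20 ± 0.209 in controls and 5.02 ± 2.52 in knockouts without overlap. It did not pass in the main fit (limma adjusted p = 0.0869) but did with Xist as a covariate, as did 2.01% of all genes. Cd3d, Cd3g, Cd4 and Cd8a did not exceed 0.165 scaled FPKM in any library and their groups overlapped. The part of the cells these lists mark in the members' levels was not tested.

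Among the glycosidases Hexa and Glb1 had no overlap between the groups. Hexa, the alpha subunit of beta-hexosaminidase, stood at 20.5, 25.7, 25.4 and 22.4 scaled FPKM in controls and at 27.9, 28.7, 27.8 and 31.2 in knockouts. The log2 difference was 0.29 (SE 0.091, unadjusted p = 0.0109, limma adjusted p = 0.217), and 0.18 in the 5 libraries without Xist. Glb1, beta-galactosidase, stood at 1.42, 1.50, 1.47 and 1.43 in controls and at 2.03, 1.79, 1.52 and 2.34 in knockouts. Its values were close together in controls and spread in knockouts, with a log2 difference of 0.24 (SE 0.096, limma adjusted p = 0.327). Its locus overlaps the listed gene Tmppe, so its low values are uncertain. Without scaling the groups of Glb1 overlapped.

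None of the remaining glycosidases and saposins passed. Gaa, the acid alpha-glucosidase that degrades glycogen in lysosomes and is deficient in Pompe disease, stood at 62.5 ± 11.2 in controls and 60.8 ± 6.32 in knockouts, and its log2 difference was -0.03 (95% interval -0.34 to 0.29). Psap stood at 339 ± 21.9 and 331 ± 44.0, with a log2 difference of -0.04 (-0.29 to 0.21). Neu1, a sialidase, and Gusb, beta-glucuronidase, stood at 6.22 ± 0.199 and 5.67 ± 0.835 in controls and at 6.43 ± 0.225 and 6.06 ± 1.23 in knockouts. Gla, the alpha-galactosidase deficient in Fabry disease, lay between 1.48 and 1.74 in controls and between 1.24 and 1.55 in knockouts. Knockout 4 was the one knockout inside the control range, and the mean of the knockouts was 82.5% of that of the controls. The log2 difference was -0.17 (SE 0.077, limma adjusted p = 0.405), on a scale where the pseudocount lessens differences at this low level.

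Mcoln1, the calcium channel TRPML1 of the lysosomal membrane, stood at 16.5, 18.4, 16.8 and 15.0 scaled FPKM in controls and at 20.8, 17.4, 19.9 and 18.8 in knockouts. Knockout 2 lay below control 2, and the log2 difference was 0.19 (SE 0.087, limma adjusted p = 0.391). The cholesterol exporters Npc1 and Npc2 differed in spread. Npc2, the soluble partner, was steady at 15.1 ± 0.578 and 16.0 ± 1.08. Npc1, the membrane partner, stood at 7.52, 21.5, 12.7 and 16.1 in controls and at 17.0, 9.97, 13.6 and 9.58 in knockouts. Its 3 lowest libraries were those with Xist, and its log2 difference of -0.14 (95% interval -0.80 to 0.52) had the largest SE of any member, at 0.29. With Xist as a covariate it was 0.05 (-0.34 to 0.44). The locus of Npc1 overlaps the listed gene 3110002H16Rik.

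**Figure D3:**
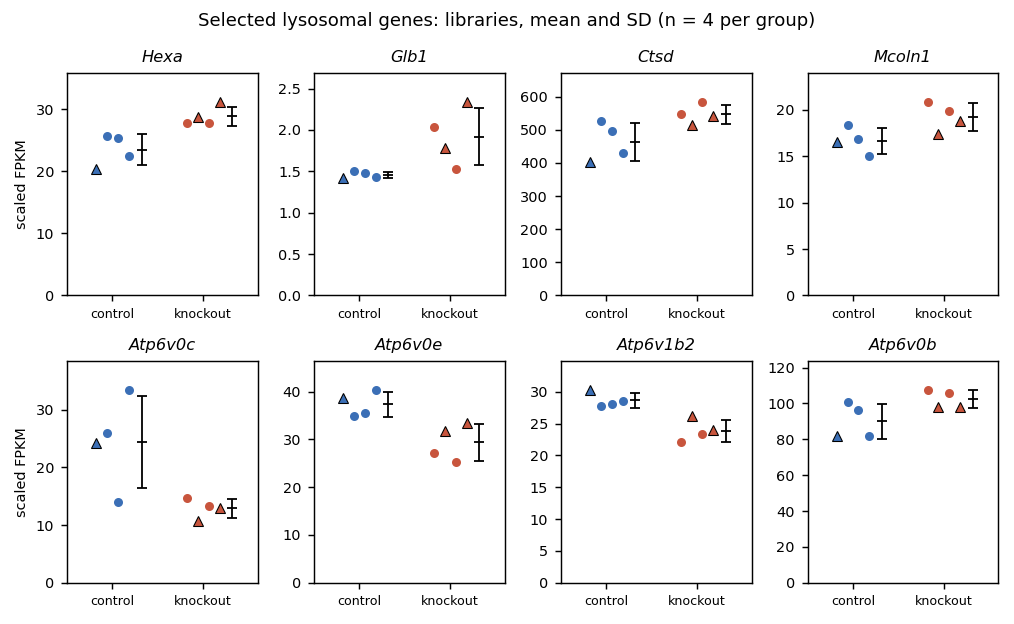
Scaled FPKM of 8 lysosomal genes in each library (blue control, red knockout, triangles for libraries with Xist), with mean and SD beside the points (n = 4 per group). Hexa and Glb1 lie higher and Atp6v0e and Atp6v1b2 lower in knockouts without overlap, while the control points of Atp6v0c spread from 14.0 to 33.5.

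In the V0 sector of the pump the subunits differed in direction, and none passed. Atp6v0c encodes the proteolipid that forms most of the proton-carrying ring. It stood at 24.2, 26.0, 14.0 and 33.5 scaled FPKM in controls and at 14.7, 10.6, 13.2 and 13.0 in knockouts. Control 3 lay inside the range of the knockouts, and the other 3 controls above it. The log2 difference of -0.82 (SE 0.23, unadjusted p = 0.00631, limma adjusted p = 0.182) was the largest of any member. Without control 3 it was -1.05, with a limma adjusted p of 0.0559. It was -0.65 (0.360) without control 4, -0.74 (0.357) without knockout 2 and -0.69 (0.467) in the 5 libraries without Xist. Its locus is shared with a listed pseudogene copy, Atp6v0c-ps2, whose deposited values were 1.07e-05 FPKM or less, so how reads were divided between the copies is uncertain. Atp6v0b encodes a second, related proteolipid of the ring. It stood at 81.9, 101, 96.1 and 81.7 in controls and at 108, 98.0, 106 and 98.1 in knockouts, overlapping, with a log2 difference of 0.19 (SE 0.093, limma adjusted p = 0.439). The ratio of Atp6v0b to Atp6v0c was between 2.44 and 6.88 in controls and between 7.34 and 9.22 in knockouts.

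Atp6v0e, a small hydrophobic subunit, stood at 38.6, 34.8, 35.5 and 40.4 scaled FPKM in controls and at 27.1, 31.7, 25.3 and 33.5 in knockouts. The groups did not overlap, and among the knockouts the 2 libraries with Xist were the higher. Its log2 difference was -0.34 (SE 0.10, limma adjusted p = 0.208), -0.39 (SE 0.082, 0.0577) with Xist as a covariate and -0.48 (SE 0.11, 0.211) in the 5 libraries without Xist. Without scaling the difference was -0.26 (0.431) and the groups of Atp6v0e overlapped. Its paralog Atp6v0e2 stood at 34.7 ± 1.46 in controls and 34.0 ± 1.18 in knockouts. Atp6v0a1, the large subunit that lines the proton path, and Atp6v0d1, which couples the ring to the rotor, stood at 18.8 ± 1.78 and 28.8 ± 3.62 in controls and at 20.9 ± 2.07 and 26.2 ± 2.64 in knockouts. Summed over the 5 V0 members, the level was 199 ± 9.31 in controls and 192 ± 7.54 in knockouts.

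Of the V1 subunits Atp6v1b2, the nucleotide-binding B subunit, separated the groups on scaled FPKM. It stood at 30.3, 27.8, 28.0 and 28.5 scaled FPKM in controls and at 22.1, 26.3, 23.3 and 23.9 in knockouts. The log2 difference was -0.25 (SE 0.075, limma adjusted p = 0.198), and -0.29 (SE 0.060, 0.0581) with Xist as a covariate. Without scaling it was -0.17 (0.468) and the groups overlapped. Atp6v1b2 overlaps the listed gene Slc18a1. Atp6v1e1, of the peripheral stalk, was the most abundant V1 member at 147 ± 10.7 and 145 ± 6.50, with a log2 difference of -0.02 (95% interval -0.20 to 0.16). Atp6v1f, of the central stalk, stood at 122 ± 13.6 and 112 ± 19.6, and its 2 lowest libraries were knockouts 2 and 4, at 93.7 and 97.5. Its log2 difference was -0.14 over all libraries and 0.07 without those 2.

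The other V1 members were flat or scattered. Atp6v1d, the rotor shaft, stood at 75.6 ± 4.51 and 77.1 ± 8.49, and Atp6v1h, a regulatory subunit, at 15.8 ± 3.44 and 14.5 ± 1.02. Atp6v1c1, which links the sectors, stood at 19.0 ± 1.60 and 21.1 ± 2.20, with a log2 difference of 0.14 (SE 0.096, limma adjusted p = 0.58). That was 0.081 without knockout 2 and 0.036 without knockouts 2 and 4. Atp6v1a, the catalytic A subunit, was the least abundant of the V1 members, at 6.68 ± 1.13 and 7.44 ± 1.24. The A and B subunits occur in equal number in the assembled pump. Per length of transcript Atp6v1b2, whose locus overlaps Slc18a1, stood above Atp6v1a in every library. These are transcript levels, and protein was not measured. Summed over the 7 V1 members, the level was 415 ± 25.4 in controls and 401 ± 7.74 in knockouts, with overlap.

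Both accessory subunits were X-linked and each had stray libraries. Atp6ap1, also called Ac45, lay between 66.6 and 71.0 scaled FPKM in 7 libraries and at 47.8 in knockout 1. Its log2 difference was -0.13 (SE 0.12, limma adjusted p = 0.725) and 0.0035 without knockout 1. Atp6ap2, the prorenin receptor, stood at 8.65, 7.45, 8.68 and 9.33 in controls and at 8.96, 14.3, 7.97 and 13.1 in knockouts. Knockouts 2 and 4 stood above the other 6 libraries, while control 1, which also held Xist, did not. The log2 difference of 0.31 (SE 0.17, limma adjusted p = 0.491) was -0.0078 without them.

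**Figure D4:**
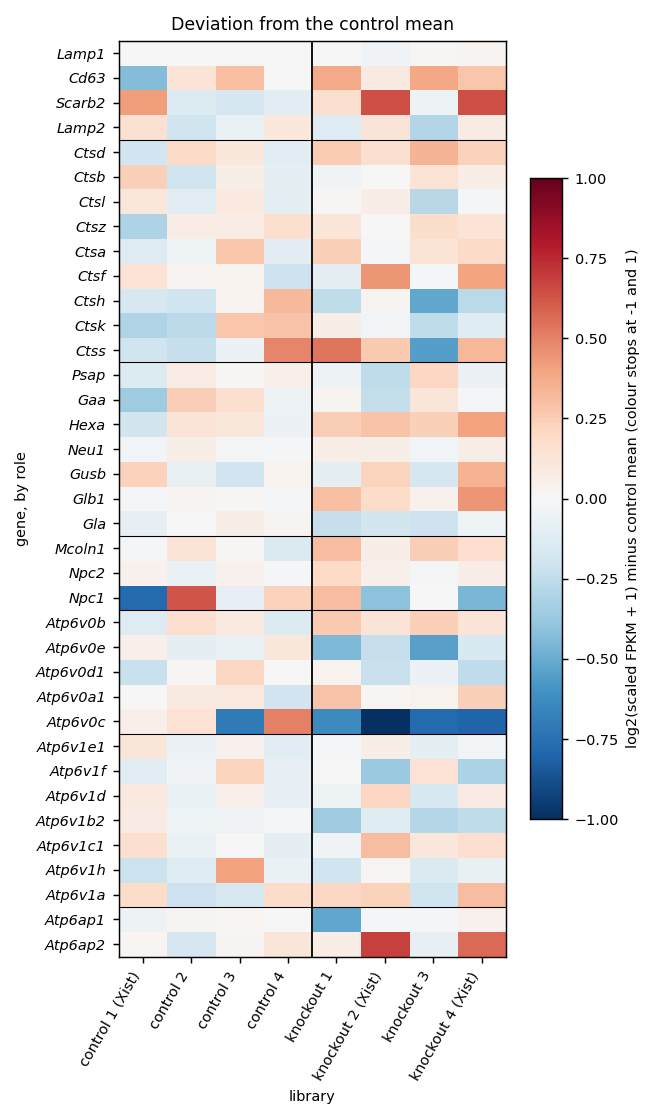
Deviation of each of the 37 genes from its control mean, log2(scaled FPKM + 1), by library, with lines between roles and between the groups. Scarb2 is high in the 3 libraries with Xist, Atp6ap2 in knockouts 2 and 4, and Atp6v0c low in all 4 knockouts and in control 3.

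Most pump subunits with paralogs were expressed from 1 gene. Atp6v1b1, Atp6v1c2, Atp6v1e2, Atp6v1g3 and Atp6v0d2 did not reach 0.1 scaled FPKM in any library, against between 17.8 and 160.0 for Atp6v1b2, Atp6v1c1, Atp6v1e1 and Atp6v0d1. The a subunit was mixed, with Atp6v0a2 at 9.58 ± 0.398 and Tcirg1, its osteoclast form, at 5.38 ± 0.819 in controls beside Atp6v0a1. The G subunit came mainly from Atp6v1g1, at 199 ± 33.8 in controls and 166 ± 18.8 in knockouts, with a log2 difference of -0.25 (SE 0.14, limma adjusted p = 0.482). Atp6v1g2, known from neurons, stood at 1.47, 1.49, 1.46 and 1.35 in controls and at 1.83, 2.15, 1.99 and 2.30 in knockouts. It separated the groups at a low level, with a log2 difference of 0.33 (SE 0.076, limma adjusted p = 0.12). Of the 18 further pump and assembly genes listed, 11 were tested and none passed.

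**Figure D5:**
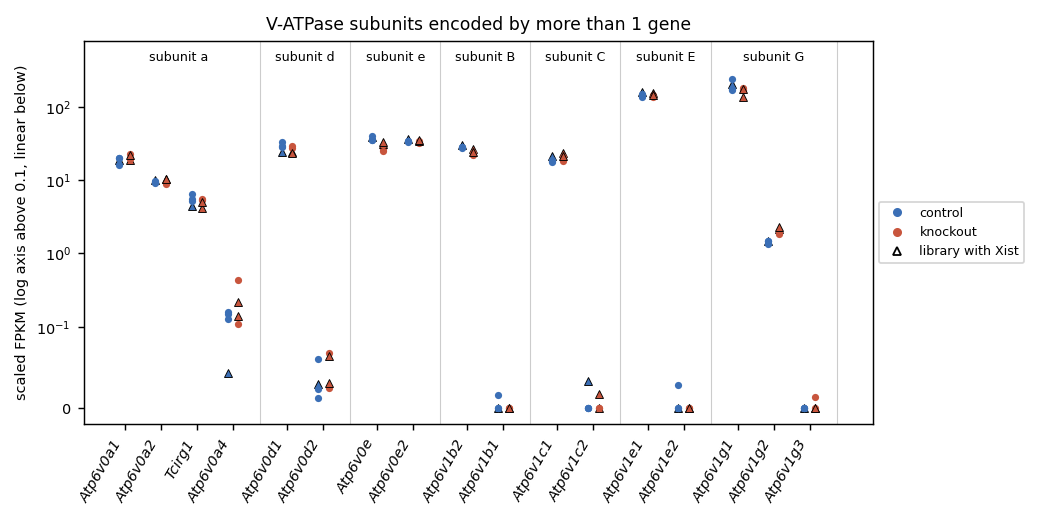
Scaled FPKM of V-ATPase subunits encoded by more than 1 gene, by library (log axis above 0.1, linear below). For subunits d, B, C, E and G 1 gene carries most of the level, while a and e are shared between paralogs.

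Outside the members, 108 further lysosomal genes in 6 lists were examined, of which 96 were tested. None passed in limma, and 12, or 12.5%, had an unadjusted p under 0.05, against 13.1% of all genes. Of the 96, 35 had a difference above 0 and 61 below, with a median log2 difference of -0.03. On scaled FPKM groups did not overlap for 10 of the 96, or 10.4%, against 8.31% of all genes. Of these, 9 were higher, against 4.67% of all genes, and 1 was lower, against 3.64%. Among soluble hydrolases Dnase2a, the acid nuclease of lysosomes, stood at 5.69, 4.05, 4.66 and 4.01 scaled FPKM in controls and at 9.65, 8.60, 6.61 and 9.08 in knockouts, and Hyal1, a hyaluronidase, at 2.05 ± 0.252 and 3.38 ± 0.541. Their log2 differences were 0.76 (SE 0.13, limma adjusted p = 0.0566) and 0.52 (SE 0.11, 0.0915). With Xist as a covariate 3 of the 96 passed: Dnase2a and Hyal1 rose, by 0.70 and 0.46 on the log2 scale, and Ctsc, cathepsin C, fell by 0.45 (adjusted p 0.0333, 0.0333 and 0.0468). That is 3.13% of the 96, against 2.01% of all genes. Lgmn, the asparaginyl protease that processes cathepsins, was singled out after its values were seen. It stood at 22.7, 20.5, 19.5 and 20.8 in controls and at 44.6, 32.4, 25.8 and 32.2 in knockouts, without overlap, at a log2 difference of 0.64 (SE 0.15, limma adjusted p = 0.117).

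No regulator or sorting factor passed. Tfeb was the most abundant of its family at 41.9 ± 4.36 and 43.2 ± 3.63, with Tfe3 at 4.53 ± 0.228 and 4.28 ± 0.176 and Mitf at 3.98 ± 0.428 and 3.98 ± 0.427. None of 17 genes of the TFEB family and of nutrient sensing passed or had an unadjusted p under 0.05. Those with the smallest p were Rraga, a Rag GTPase, at -0.12, and Zkscan3, a repressor of lysosomal genes, at 0.16 on the log2 scale (limma adjusted p 0.469 and 0.604). In mannose 6-phosphate sorting Sort1, sortilin, stood at 10.4 ± 1.64 and 7.42 ± 0.764 and Gga2, an adaptor, at 5.51 ± 0.105 and 6.95 ± 0.993 (adjusted p 0.183 and 0.258). Tmem175, a lysosomal potassium and proton channel, and Laptm4b stood at 0.24 and -0.27 (0.222 and 0.373). The cathepsin inhibitors Cst3, at 1158 ± 230.2 and 982 ± 127 scaled FPKM, and Cstb had log2 differences of -0.22 and -0.10 (0.617 and 0.747).

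The 11 members with CACGTG and the 20 without had median log2 differences of 0.14 and 0.03, with 8 of 11 and 11 of 20 above 0. Over all tested genes with a promoter entry the medians were 0.0027 for the 867 with CACGTG and -0.0019 for the 7601 without. Of the promoters shown, Ctsd, Glb1, Mcoln1 and Atp6v0b stood at 0.25, 0.24, 0.19 and 0.19 on the log2 scale, Lamp1 with its 4 copies at 0.0023, and Atp6v0e without a copy at -0.34. Members not shown went the other way, with Gla at -0.17 and 2 copies and Hexa at 0.29 and 0 copies. The promoters shown were chosen with those values known, and none of the 6 genes passed.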

How the data were processed

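RNA of tibialis anterior from 8 mice was extracted with Trizol and made into TruSeq libraries, per the labels. The deposited values are FPKM, 1 gene table per library in Cufflinks format per the file headers, and the submitters' processing notes name STAR, Cufflinks and mm10. Versions and annotation were not given in the sources used here. How the authors assigned reads between overlapping genes, and whether strand was used, is not stated. The 9 members that overlap another listed locus are therefore less certain. They are Scarb2, Ctsa, Ctsb, Ctsz, Glb1, Npc1, Atp6v0a1, Atp6v0c and Atp6v1b2. The 23 genes without an OK status throughout were left out.

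Each library's FPKM was divided by a factor (0.904 to 1.07, median of ratios over genes reaching 1 FPKM everywhere). Analysis used log2(scaled FPKM + 1), a scale on which low genes show too small a change. The test was limma 3.58.1 in R 4.3.3 (eBayes with a trend, Benjamini-Hochberg adjustment, threshold 0.05) on genes that reached 1 scaled FPKM in 4 or more libraries, and its code was tested on simulated data. Carm1 was tested by exact permutation, 2-sided. Summaries used Python 3.11.15, pandas 2.3.3 and scipy 1.17.1. The 4 libraries per group are titled biological replicates.

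Named genes were members at an adjusted p under 0.05 (there were 0), the 2 members of each role with the smallest p and the 2 with the highest level, and likewise the passing genes and the 2 with the smallest p in each further list. Others are named for their level, or after their values were seen, as for Ctsc, Lgmn, Npc1, Gla, Ctsf, Ctss and Cd3e. Members and lists were chosen with earlier results of these data known. Alternatives were a pseudocount of 0.1, 2 other filters (none, or a mean of 5 scaled FPKM), unscaled FPKM, quantile normalization, each library left out, a replicate block, robust eBayes, and 3 ways to treat libraries with Xist (1 FPKM or more): a covariate, only the other 5, or no knockouts 2 and 4. Fits with fewer libraries used the same genes and scaling.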

Additional observations from a re-analysis of the deposited data

Results flagged for a closer look

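In 3 of 76 groups of 4 libraries examined, for Carm1 and the 37 members, 1 library stood far from the other 3 by Dixon's criterion, and chance marks about 1 in 20 groups. Scarb2 in control 1 stood at 52.9 scaled FPKM, against 35.0 to 36.3 in the other controls. Neu1 in knockout 3 stood at 6.10, against 6.51 to 6.57 in the other knockouts. Atp6ap1 in knockout 1 stood at 47.8, against 68.1 to 71.0. Control 1 holds Xist, and its part in the value of Scarb2 was not tested.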

How the results depend on the processing

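The count of 0 members held in all 18 alternatives. The 40 genes called became 8 without a filter, 15 at a mean of at least 5 scaled FPKM, 223 with Xist as a covariate, 3 in the 5 libraries without Xist, 13 without knockouts 2 and 4, and 2 to 27 with 1 library left out. The replicate block gave 0 genes in limma (1314 at an unadjusted p under 0.05) and 4 members at an unadjusted p under 0.05. Same-numbered libraries correlated at -0.432, -0.194, 0.349 and 0.194 in their deviations from the group means. Control 1 was most like knockout 2, at 0.479, and both hold Xist. From 4 pairs it cannot be told whether same-numbered samples share more than a number. The 0 further lysosomal genes became 3 with Xist as a covariate, and 0 to 1 with 1 library left out (Dnase2a without knockout 3). The 6 members at an unadjusted p under 0.05 became 10 with quantile normalization (13.2% of all genes), 10 with Xist as a covariate (18.6%), 3 without knockouts 2 and 4 (12.9%), and 4 to 8 with 1 library left out (10.4% to 14.5%). Carm1 stood at -0.80 in the 5 libraries without Xist, -0.75 without knockouts 2 and 4, and -1.02 to -0.84 with 1 library left out, where the exact permutation p cannot go under 0.05.

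Of 21 named members 13 kept their direction throughout. Psap turned to 0.051 without scaling, 0.040 with quantile normalization, 0.015 with Xist as a covariate, 0.032 in the 5 libraries without Xist and 0.079 without knockouts 2 and 4. Gaa turned to 0.061, 0.023, 0.053 and 0.074 in the same settings other than the 5 libraries. Atp6v1e1 turned to 0.067 without scaling and 0.079 with quantile normalization. In the 5 libraries and without knockouts 2 and 4, Atp6v1f turned to 0.039 and 0.074, and Atp6ap2 to -9.56e-05 and -0.0078. With 1 library left out the ranges were -0.0072 to 0.014 for Lamp1, -0.029 to 0.12 for Ctsb, -0.12 to 0.033 for Psap, -0.14 to 0.055 for Gaa, -0.059 to 0.020 for Atp6v1e1 and -0.18 to 0.0035 for Atp6ap1. The cause of these turns was not tested. Without scaling, the median of all genes moved to 0.07, 26 members stood above 0, and the groups of 5 members did not overlap, all higher (Cd63, Ctsd, Hexa, Mcoln1 and Atp6v0b), against 9.94% of all genes. No read counts are given, so precision at the level of Gla or Glb1 is unknown.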
